A study of Mus musculus with 15 samples.

Results

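The *Smarcd1* locus was described region by region, over all regions that overlap a window of 25 kb on chromosome 15 of mm39, which holds the whole gene and the 10.2 kb before its start. The rule used position alone. It found 5 of the 38036 regions in the table made for the overexpression comparison (OE table) and 6 of the 44598 regions in the table made for the knockdown comparison (KD table), 11 regions in all. The regions are named here A1 to A5 in the OE table and B1 to B6 in the KD table, in order along the chromosome.

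*Smarcd1* encodes BAF60A, an accessory subunit of the BAF (SWI/SNF) complexes, which use ATP to slide or evict nucleosomes. BAF60 subunits are known as adaptors between the complex and transcription factors. ATAC-seq uses a transposase to insert sequencing adapters into DNA that is not wrapped in nucleosomes, and in most tissues active promoters give its strongest peaks.

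The question was how altered *Smarcd1* expression relates to accessible chromatin in 6DT1, a mouse mammary cancer cell line grown as an untreated monolayer. The 15 libraries comprised 3 of each of 5 groups. The EV line carried an empty vector, and the OE line carried a *Smarcd1* cDNA under a pol2 promoter with a C-terminal Myc tag. The methods name blasticidin for overexpression cells and do not name the drug of the EV line. The Scr line carried a scrambled shRNA, and the KD4 and KD6 lines carried shRNAs against *Smarcd1*. For shRNA knockdown cells the methods name puromycin, and they do not name the drug of the Scr line. An shRNA directs the breakdown of its target mRNA. Which of the study's shRNAs KD4 and KD6 each carry is not in the labels, and every group is made of transduced, drug-selected cells of a single parent line.

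Each table lists all 15 libraries over its own set of regions. Total counts were 16176518 to 23703753 per library of the KD table and 22668622 to 31225956 per library of the OE table. The 8 largest regions took 4.28% of KD-table counts and 23.7% of OE-table counts. The series is deposited as ATAC-seq, but the labels' protocol is for RNA and the submitters' processing notes name STAR, an aligner made for RNA. Which assay gave these counts is therefore uncertain, and values are given as counts per region, not as accessibility. They are expected counts, and levels below are CPM, counts as a share of a library's total after scaling for library size by TMM. According to the labels, each replicate was seeded from another passage on a following day, in a text that describes extraction of RNA, so it is uncertain whether it covers these libraries. The p-values therefore measure the spread between libraries, which may be partly technical. Each library pools many cells, so signal in more cells and more signal per cell cannot be told apart.

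In both tables the regions at this locus lay on exons of *Smarcd1*, on the last exon of its upstream neighbour or between these genes, and no region covered the start of *Smarcd1*. Exons were placed from an older annotation (GENCODE vM1 on NCBIM37) by a constant shift, estimated from the regions of a surrounding stretch of 2000 kb with the locus left out. At that shift, 77.9% of the bases in the 107 OE-table regions of this stretch lay on protein-coding exons, against at most 22.6% at shifts over 3 kb away. For the 138 KD-table regions the largest share was 69.9%, at a shift of 67467 bp, against at most 20.7% over 3 kb from it. Exons make up 9.57% of the stretch. Of 154 transcript starts there, 2 lay in an OE-table region and 5 in a KD-table region. *Smarcd1* has 13 exons in 11709 bp, with 1545 coding bases before the stop codon, 35 bp of 5′ UTR and 1573 bp of 3′ UTR, and distances below count from its start.

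**Figure D1:**
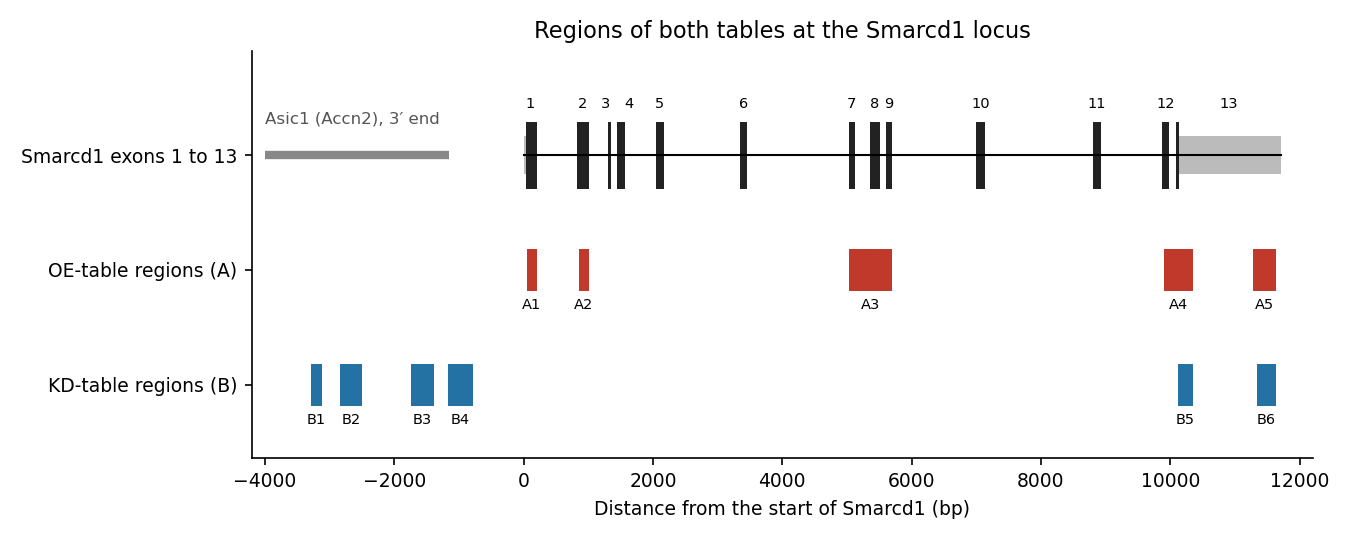
The *Smarcd1* gene and the regions of both tables, by distance from the gene's start in bp. Tall black boxes are coding exon, low grey boxes are UTR, red boxes are regions A1 to A5 and blue boxes are regions B1 to B6. The A regions begin in exon 1 and end in the 3′ UTR, and 4 of the 6 B regions lie before the gene.

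The OE-table regions ran from exon 1 to the 3′ UTR and touched 7 of the 13 exons. Region A1 (chr15:99600214-99600377, 164 bp) lay wholly in the coding part of exon 1 and ended 1 bp before the end of that exon. Region A2 (chr15:99601018-99601174, 157 bp) lay in exon 2, with 156 coding bases and 1 intron base, which is within the uncertainty of the placement. Region A3 (chr15:99605194-99605858, 665 bp) began 3 bp inside exon 7 and ended 4 bp inside the end of exon 9, so it held 355 coding and 310 intron bases. Its borders thus followed a run of exons and not 1 exon alone. Region A4 (chr15:99610065-99610513, 449 bp) spanned exon 12, the last intron and the start of exon 13, with 127 coding, 111 intron and 211 3′ UTR bases. Region A5 (chr15:99611446-99611800, 355 bp) held 3′ UTR alone. Exons 3 to 6, 10 and 11 had no region. In all 76.4% of the region bases were exonic, although exons make up 26.9% of the gene, and the regions covered 51.9% of the coding bases and 36% of the 3′ UTR.

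Only the 3′ end of the gene had regions in the KD table. Regions B5 (chr15:99610293-99610512, 220 bp) and B6 (chr15:99611500-99611799, 300 bp) lay in exon 13, with 10 coding bases in B5 and none in B6. B5 lies within A4, and B6 overlaps A5, so these pairs count partly the same bases. The other 4 lay upstream. B1 (chr15:99596875-99597046), B2 (chr15:99597328-99597669) and B3 (chr15:99598425-99598780) fell on the last exon of *Asic1*, a proton-gated sodium channel gene listed as *Accn2* in the annotation, over 133, 342 and 356 bp. B4 (chr15:99598995-99599380) had 16 bp on that exon and otherwise lay between the genes, ending 787 bp before *Smarcd1*. The nearest OE-table region upstream of the gene was 80.9 kb away. A1 shares 136 bp with *Gm17349*, a gene model on the other strand. No source used here says whether the counting used strand, so reads of the overlapping pair cannot be told apart.

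The sequences below show where the coding sequence begins and ends and what splicing joins, since the regions differ in how much coding sequence they hold. They come from the GENCODE vM1 transcript of *Smarcd1*, 5′ to 3′ on the coding strand. Capitals mark the start codon, the downstream exon of each junction and the stop codon. Position 1 is the first base of the transcript.
Start of the coding sequence, exon 1, transcript bases 36 to 65: ATGgcggcccgggcgggtttccagtctgtg
Junction of exon 1 and exon 2, bases 198 to 227: ggggcggcctatccgAGACCAGGTATGCTG
Junction of exon 9 and exon 10, bases 1154 to 1183: caatcatgtcatcagTGTGGACCCAAATGA
Junction of exon 12 and exon 13, bases 1515 to 1544: tacttctactccaagGTGCAGCAGAGGCGG
End of the coding sequence, exon 13, bases 1554 to 1583: gagcaagccctgggaatccgaaacacaTAG

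A1 and A2 are 640 bp apart on the chromosome and 33 bp apart in the spliced transcript, across the junction of exon 1 and exon 2. A2 and A3 are 4019 bp apart on the chromosome and 409 bp in the transcript. For A3 and A4 the distances are 4206 and 289 bp, and A4 and A5 are 932 bp apart in both, since exon 13 is not interrupted. The cDNA of the OE line was amplified with primers on the start and the end of the coding sequence shown above, so the insert as described holds all coding exons and neither introns nor the 3′ UTR.

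*Smarcd1* coding exons had more counts in OE than in EV, and the 3′ UTR region did not differ detectably. All 4 regions with coding bases in the OE table were called higher by edgeR's quasi-likelihood test (Benjamini-Hochberg false discovery rate, FDR, of 0.05). They were the only calls among 37765 tested regions, 0.0106% of them. The median log2 fold change of the 5 locus regions was 1.49, while over all tested regions the median was 0.02 and the middle 90% ran from -0.29 to 0.58. OE libraries lay above all EV libraries without overlap in 4 of the 5 regions, against 7.17% of all OE-table regions. In the same 4 they lay above all 12 other libraries, which held for 0.179% of all regions.

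Region A1, in exon 1, had 0.703, 1.17 and 0.733 CPM in the EV libraries and 3.30, 3.79 and 2.60 CPM in the OE libraries. The groups did not overlap, and the lowest OE library was still above every other library. The mean rose 3.73-fold, from 0.867 ± 0.259 to 3.23 ± 0.601 CPM (SD, n = 3), or by 1.91 ± 0.262 on the log2 scale (± standard error, edgeR FDR = 0.012). Counts here were the lowest of the gene, at 17.6 to 33.2 in EV, and the call was lost without EV replicate 3, OE replicate 1 or OE replicate 2 (FDR = 0.0876, 0.183 and 0.137).

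Region A2, in exon 2, had 5.26, 3.53 and 2.53 CPM in EV and 10.3, 11.1 and 9.78 CPM in OE. EV replicate 1 stood above the other EV libraries but below each OE library. The mean rose 2.75-fold, from 3.77 ± 1.38 to 10.4 ± 0.661 CPM (SD, n = 3), or by 1.49 ± 0.19 on the log2 scale (edgeR FDR = 0.00659). The call was lost without EV replicate 2, OE replicate 1 or OE replicate 2 (FDR = 0.0584, 0.126 and 0.0556).

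Region A3, on exons 7 to 9, had 12.5, 9.99 and 10.1 CPM in EV and 32.2, 30.9 and 27.1 CPM in OE. It had the largest counts of the locus, and OE libraries stood far above the EV range. The mean rose 2.76-fold, from 10.9 ± 1.43 to 30.04 ± 2.67 CPM (SD, n = 3), or by 1.49 ± 0.127 on the log2 scale (edgeR FDR = 2.8e-05). It was called in each of the 16 settings tried, with log2 fold changes of 1.41 to 1.59.

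Region A4, from exon 12 into the 3′ UTR, had 7.20, 7.92 and 7.04 CPM in EV and 13.8, 13.2 and 12.02 CPM in OE. Again the groups did not overlap, but the gap was narrower. The mean rose 1.76-fold, from 7.39 ± 0.472 to 13.02 ± 0.899 CPM (SD, n = 3), or by 0.83 ± 0.129 on the log2 scale (edgeR FDR = 0.0434). This call was the least stable of the 4. It held in 8 of 16 settings, and was lost when EV replicate 2, EV replicate 3, OE replicate 1, OE replicate 2 or OE replicate 3 was left out (FDR = 0.185, 0.143, 0.826, 0.461 and 0.0862), while the log2 fold change stayed between 0.78 and 0.93. It was also lost with the replicate number as a block (FDR = 0.0765), with RLE scaling and in 1 fit of 5 groups.

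Region A5, in the 3′ UTR, had 6.88, 4.52 and 4.79 CPM in EV and 5.19, 5.11 and 4.44 CPM in OE. The OE values fell almost wholly inside the EV range. The mean was 5.40 ± 1.29 CPM in EV and 4.91 ± 0.413 CPM in OE (SD, n = 3), a log2 fold change of -0.11 with a 95% interval of -0.48 to 0.26 (FDR = 0.857 from edgeR). The upper bound lies below the log2 fold change of each of the 4 regions with coding bases.

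**Figure D2:**
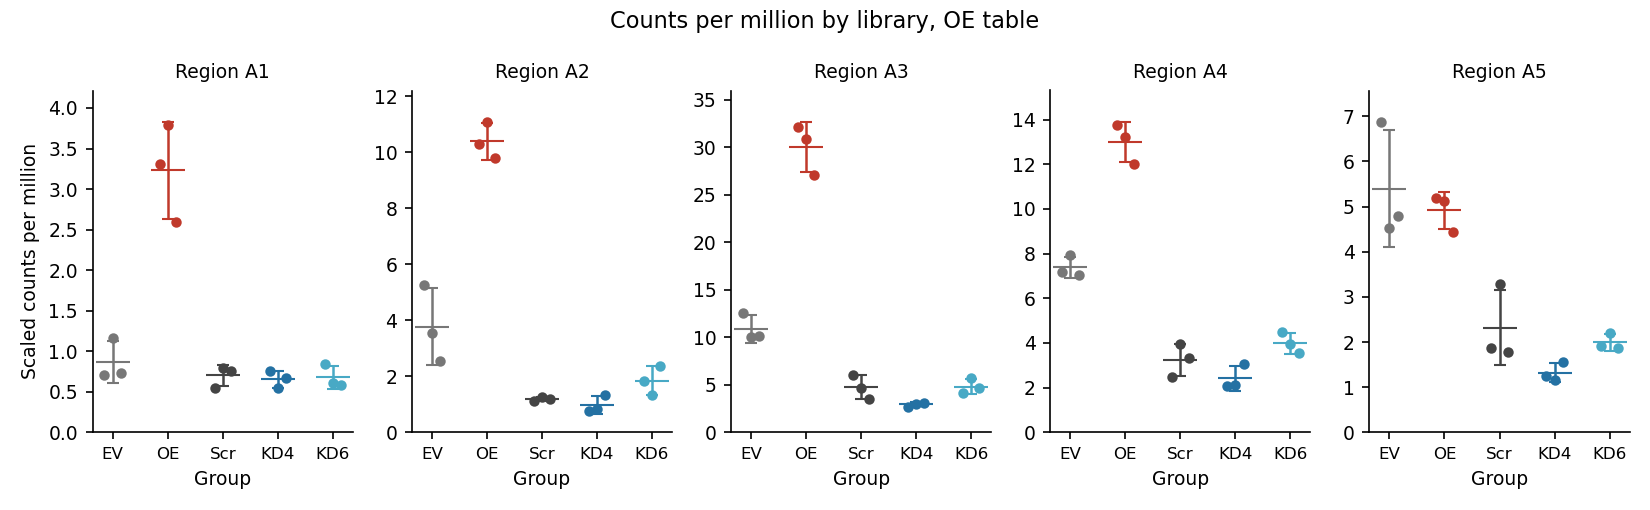
Scaled counts (CPM) at regions A1 to A5 in each library, with the mean as a bar and the SD as error bars (n = 3). OE libraries lie above the other 12 libraries in A1 to A4, while in A5 they overlap EV, and EV and OE lie above Scr, KD4 and KD6 in A2 to A5.

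Read per length, the rise from EV to OE in A2 to A4 was more even over coding bases than over region length. With A1 included it was not. Per kb of region, EV means were 5.29 CPM in A1, 24.04 in A2, 16.4 in A3, 16.5 in A4 and 15.2 in A5. In OE they were 19.7, 66.2, 45.2, 29.0 and 13.8 CPM per kb in the same order. A5 thus had about the level of A3 and A4 in EV and the lowest level in OE. The difference of the means was 42.1 ± 5.63 CPM per kb in A2, 28.8 ± 2.63 in A3, 12.5 ± 1.31 in A4 and -1.37 ± 2.21 in A5 (± standard error). Per kb of coding sequence it was 42.4 ± 5.66 CPM in A2, 53.99 ± 4.92 in A3 and 44.3 ± 4.62 in A4, values that lay closer together. A1, wholly coding, differed by only 14.4 ± 2.30 CPM per kb, far below the values of A2 to A4 per coding kb. The A4 value divides all its reads, also any on intron or 3′ UTR bases, by its coding bases. These are descriptions of 5 regions, and counts per region do not show where in A3 or A4 the reads lay.

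A ratio within a library does not depend on the scaling between libraries. The ratio here was added after seeing the data. It sets regions already called higher in OE over the OE-table region that was not called. Its separation of OE from EV is therefore not independent of those calls. The counts of A1, A2 and A3 together, divided by the counts of the 3′ UTR region A5, were 2.69, 3.25 and 2.80 in EV and 8.83, 8.95 and 8.89 in OE. The OE libraries were almost equal to each other and lay above all other libraries. The mean was 2.91 ± 0.298 in EV and 8.89 ± 0.0629 in OE (SD, n = 3; two-sided exact permutation test, p = 0.1, the smallest that 3 against 3 allow). The ratio was 4.12, 2.05 and 3.06 in Scr, 3.37, 3.78 and 3.29 in KD4, and 3.56, 3.46 and 4.06 in KD6. All 9 of these libraries lay far below OE. The KD4 and KD6 libraries pooled had a mean of 3.59 ± 0.289 (SD, n = 6). The Scr mean was 3.08 ± 1.03 (SD, n = 3), a difference smaller than the spread of Scr (exact permutation test, p = 0.357).

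**Figure D3:**
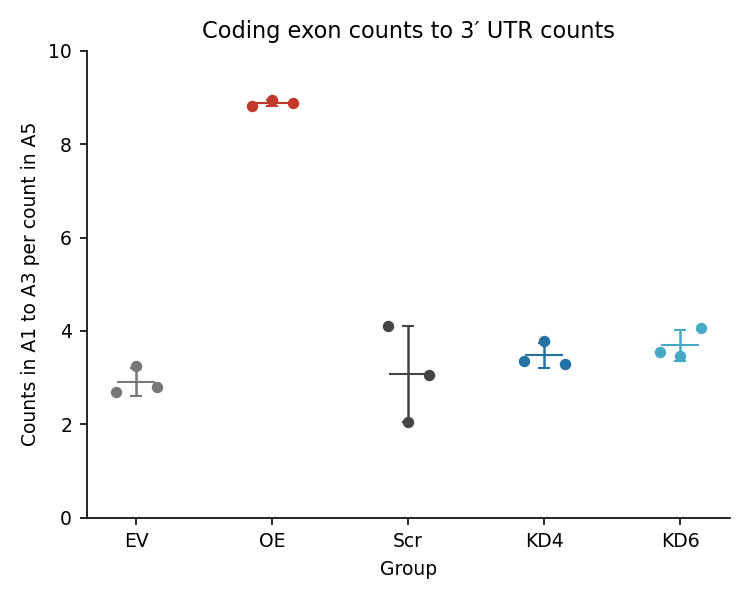
Counts in A1 to A3 per count in A5 for each library, with the mean as a bar and the SD as error bars (n = 3). The 3 OE libraries sit between 8.83 and 8.95, and the other 12 libraries sit between 2.05 and 4.12.

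The share of all locus counts that fell in A2, A3 and A4, the regions on coding exons after the first, was 76.7%, 79.04% and 78.1% in EV and 86.9%, 86.1% and 87.4% in OE. OE libraries were higher without overlap. This share sets regions already called higher in OE over a total that includes A5, so it is not independent of those calls either. The means were 77.95% ± 1.17 and 86.8% ± 0.653 (SD, n = 3), with the smallest exact permutation p that 3 against 3 allow, 0.1. With the KD4 and KD6 libraries pooled the share was 78.04% ± 2.64 (SD, n = 6). In Scr it was 75.5% ± 4.59 (SD, n = 3, exact permutation test, p = 0.333). By line, the share was 73.5%, 77.7% and 77.2% in KD4 and 79.1%, 79.6% and 81.1% in KD6. The lines did not overlap (exact permutation test, p = 0.1), so the pooled SD and p-value mix lines that differed. Set against the first exon instead, the direction turned for OE, as A1 had the largest fold change of the gene. The ratio of A2 to A4 counts to A1 counts was 26.9 ± 8.57 in EV and 16.8 ± 2.13 in OE (SD, n = 3; exact permutation test, p = 0.2).

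Since B5 lies inside A4, the counts of A4 that fall outside B5 can be read by subtraction, a step added after seeing the data. This remainder is 229 bp long, with 117 coding bases, 111 intron bases and 1 base of 3′ UTR. It held 61, 62 and 42 counts in EV and 196, 178 and 156 counts in OE. The 3 OE libraries had the 3 highest values of all 15. In CPM the mean rose 3.21-fold, from 2.05 ± 0.472 to 6.56 ± 0.784 (SD, n = 3; exact permutation test, p = 0.1). The B5 side of A4, nearly all 3′ UTR, rose 1.21-fold on the same scale, from 5.34 ± 0.516 to 6.46 ± 0.854 CPM (exact permutation test, p = 0.2). The coding side thus made up 27.7% ± 6.12 of the A4 counts in EV and 50.4% ± 5.19 in OE (SD, n = 3). Per kb of coding bases, the OE minus EV difference was 38.6 CPM in the remainder and 44.3 CPM in A4 as a whole. Subtraction across tables assumes that reads were counted alike in both. Of 5834 region pairs nested in this way, 97.7% had at least as many counts in the wider region in all 15 libraries.

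In the KD table, where only the 3′ UTR and the upstream stretch were counted, no locus region was called for OE vs EV. edgeR called 0 of 44011 regions (0.0%), DESeq2 called 0 of the 2 locus regions for which it gave an adjusted p (B5 and B6), and 1 locus region, B5, had an unadjusted p under 0.05, as did 3.34% of all regions in that direction. B5, at the stop codon, had 5.84, 7.33 and 7.15 CPM in EV and 8.66, 9.94 and 7.84 CPM in OE. The groups did not overlap, and neither did those of B1, so 2 of 6 regions lay higher in OE, against 6.15% of all KD-table regions. On the log2 scale B5 differed by 0.39 ± 0.156 (edgeR FDR = 0.752). B6, further into the 3′ UTR, had 6.72, 4.38 and 5.13 CPM in EV and 6.03, 5.71 and 4.85 CPM in OE, with a log2 fold change of 0.04 (95% interval -0.34 to 0.43). OE values lay inside the EV range.

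The upstream regions had low counts, 8 to 59 per library. B1 had 0.539, 0.581 and 0.424 CPM in EV and 0.619, 0.669 and 1.35 CPM in OE, and its log2 fold change of 0.75 had a 95% interval of -0.07 to 1.57. B1 libraries of OE spread more than those of EV, with replicate 3 far above the others. B2 had 1.08, 1.43 and 1.08 CPM in EV and 1.60, 0.669 and 1.01 CPM in OE, and B3 had 1.08, 0.983 and 0.706 against 0.464, 0.758 and 1.18 CPM. Both overlapped. B4, the region nearest to the gene's start, had 1.13, 1.03 and 1.18 CPM in EV and 1.08, 0.981 and 1.35 CPM in OE, a log2 fold change of 0.03 (95% interval -0.58 to 0.65). At these depths the intervals leave room for a change in either direction.

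**Figure D4:**
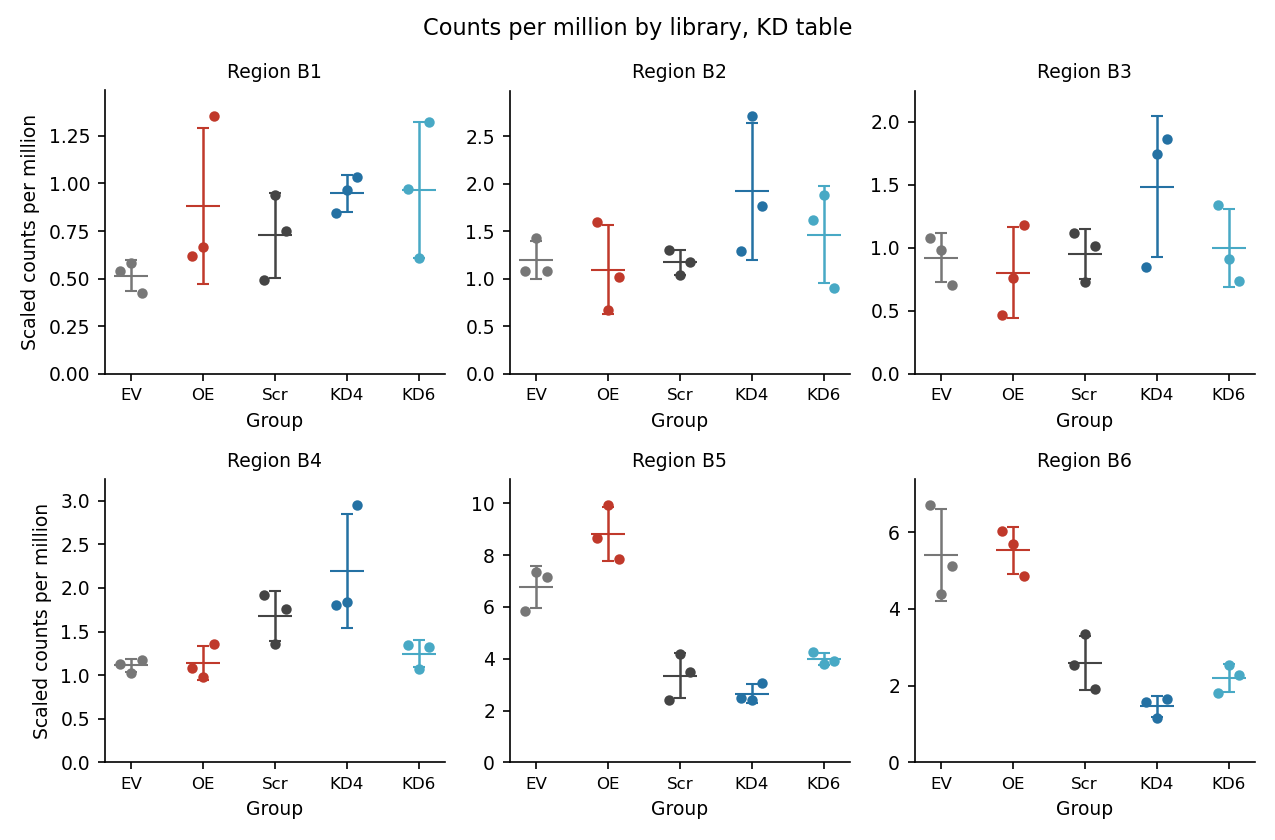
Scaled counts (CPM) at regions B1 to B6 in each library, with the mean as a bar and the SD as error bars (n = 3). The highest value in the upstream regions B1 to B4 is 2.95 CPM, while B5 and B6, in exon 13, are higher in EV and OE than in Scr, KD4 and KD6.

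The mean of both knockdown lines did not differ detectably from Scr at any locus region. edgeR called 0 of the 6 KD-table regions, where 0.271% of all regions were called, and 0 of the 5 OE-table regions, where 0.164% were called. DESeq2 also called 0, of 6 regions with an adjusted p in the KD table and 4 (all but A1) in the OE table. At an unadjusted p under 0.05, B6 was lower in the KD table, as were 2.98% of all regions, and A5 was lower in the OE table, as were 5.01%. Both lie in the 3′ UTR. Their log2 fold changes were -0.54 (95% interval -1.02 to -0.06, FDR = 0.534 from edgeR) in B6 and -0.51 (95% interval -1.01 to -0.02, FDR = 0.492) in A5.

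The lines were then set apart. In A3, on exons 7 to 9, the Scr libraries had 6.07, 4.64 and 3.54 CPM, KD4 had 2.71, 3.01 and 3.12 CPM, and KD6 had 4.11, 5.68 and 4.63 CPM. KD4 libraries were below all Scr libraries, and KD6 libraries lay within the Scr range. The log2 fold change was -0.68 ± 0.217 (edgeR FDR = 0.255) for KD4 vs Scr and 0.02 (95% interval -0.42 to 0.46) for KD6 vs Scr.

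In A5 the Scr libraries had 1.88, 3.27 and 1.79 CPM, KD4 had 1.25, 1.16 and 1.56 CPM and KD6 had 1.91, 2.20 and 1.87 CPM. KD4 was again below Scr without overlap, and KD6 was not. The log2 fold change was -0.81 ± 0.278 (edgeR FDR = 0.305) for KD4 and -0.22 for KD6. In the overlapping B6 the values were 2.54, 3.33 and 1.92 CPM in Scr, 1.58, 1.15 and 1.66 CPM in KD4, and 1.81, 2.54 and 2.27 CPM in KD6. KD4 had a log2 fold change of -0.84 against Scr there (edgeR FDR = 0.245), and B6 was the only 1 of 6 KD-table regions where it lay below Scr without overlap, against 7.29% of all regions.

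Over the OE table KD4 had negative log2 fold changes in all 5 regions, from -0.81 to -0.12, and 2 of 5 lay lower than Scr without overlap, against 8.16% of all regions. KD6 had values from -0.22 to 0.63, and 1 region, A2, lay higher than Scr without overlap, against 5.58% of all regions. A2 had 1.11, 1.27 and 1.18 CPM in Scr, 0.751, 0.833 and 1.34 CPM in KD4, and 1.84, 1.33 and 2.38 CPM in KD6. The 3 Scr libraries were close to each other, and KD4 replicate 3 lay above them while the other 2 lay below. A1, in exon 1, was low in all 9 libraries, at 0.552, 0.794 and 0.762 CPM in Scr, 0.751, 0.543 and 0.670 in KD4, and 0.844, 0.603 and 0.584 in KD6. A4 had 2.49, 3.94 and 3.31 CPM in Scr, 2.09, 2.10 and 3.08 in KD4, and 4.48, 3.94 and 3.54 in KD6. In A1 and A4 both knockdown lines overlapped Scr.

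KD6 had higher means than KD4 in all 5 OE-table regions, but no difference passed the test. edgeR called 0 of 5 (0.19% of all regions) and DESeq2 called 0 of the 2 with an adjusted p (A3 and A4). The log2 fold changes of KD6 vs KD4 ran from 0.08 in A1 to 0.91 in A2, with 0.70 in A3, 0.72 in A4 and 0.59 in A5, and the smallest FDR was 0.436. At an unadjusted p under 0.05 there were 3 regions, A2 to A4, in a direction where 2.88% of all regions passed. In A3, A4 and A5 every KD6 library was above every KD4 library, which held for 5.46% of all regions. Of the 6 KD-table regions, 0 were called by edgeR (0.224% of all regions) and 0 by DESeq2. At an unadjusted p under 0.05, B5 and B6 were higher in KD6, as were 3.13% of all regions, and B4 was lower, as were 3.24%. B5 and B6 each had a log2 fold change of 0.60, and B4, upstream, had -0.82 (FDR = 0.451). B4 had 1.92, 1.35 and 1.76 CPM in Scr, 1.80, 1.84 and 2.95 in KD4, and 1.34, 1.07 and 1.32 in KD6, so KD6 lay below Scr (4.58% of all regions) and below KD4 (5.81%) without overlap and within the range of EV and OE. B5 and 1 other region, B6, had every KD6 library above every KD4 library, against 5.92% of all regions.

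Upstream, B1 had 0.495, 0.938 and 0.748 CPM in Scr, 0.845, 0.964 and 1.04 in KD4, and 0.972, 0.609 and 1.32 in KD6. B2 had 1.30, 1.04 and 1.18 CPM in Scr, 1.30, 2.71 and 1.76 in KD4, and 1.62, 1.88 and 0.899 in KD6. B3 had 1.11, 0.729 and 1.01 CPM in Scr, 0.845, 1.74 and 1.87 in KD4, and 1.34, 0.913 and 0.740 in KD6. The 3 regions on the *Asic1* exon had positive log2 fold changes for knockdown vs Scr, 0.37 to 0.53, and none passed the test (FDR = 0.685 to 0.814 from edgeR). B5, at the stop codon, had 2.41, 4.17 and 3.47 CPM in Scr, 2.48, 2.39 and 3.06 in KD4, and 4.26, 3.80 and 3.91 in KD6, and each knockdown line overlapped Scr.

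**Figure D5:**
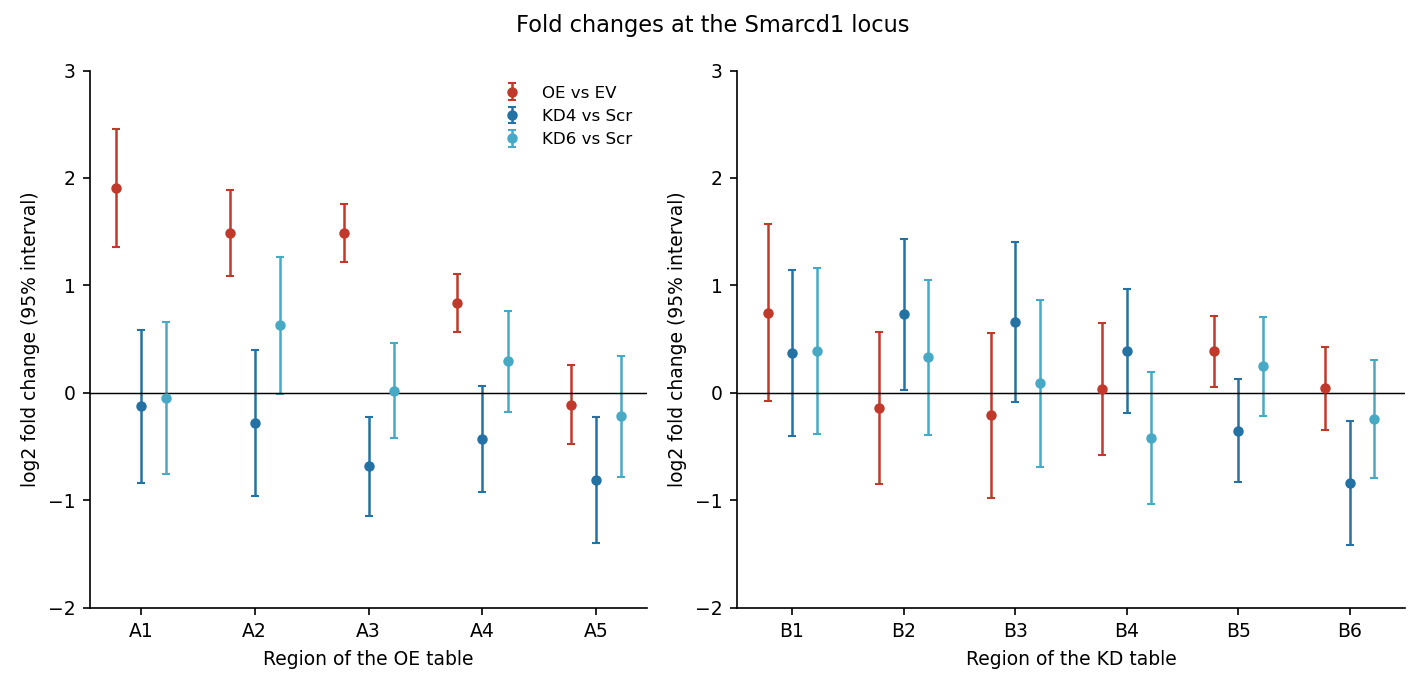
Log2 fold changes with 95% intervals from edgeR for OE vs EV, KD4 vs Scr and KD6 vs Scr at regions A1 to A5 (left) and B1 to B6 (right). For OE vs EV, A1 to A4 lie between 0.83 and 1.91 with intervals above 0, while A5 lies at -0.11, and the KD4 points lie below 0 in all A regions.

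The overexpression effect and the knockdown effect were compared directly in a fit of all 5 groups over the OE table, where 25 of 37967 regions (0.0658%) were called. At the locus 1 of 5 was called. In A3 the OE vs EV log2 fold change exceeded that of knockdown vs Scr by 1.80 ± 0.226 (edgeR FDR = 0.000851), and the difference was called in each of the 24 settings tried. A1 had the largest difference, 1.97, just past the threshold (FDR = 0.0538). It was called in 7 of 24 settings. A2 had 1.29 (FDR = 0.215), A4 had 0.88 (FDR = 0.207) and A5 had 0.38 (FDR = 0.554), so the differences were all positive, and smallest in the 3′ UTR.

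The 2 sets of lines also differed in their controls. At A2 to A5 each EV library was above each Scr library, 4 of 5 regions against 14.2% of all regions. EV means were 1.23 times the Scr means in A1, 3.18 times in A2, 2.29 times in A3, 2.28 times in A4 and 2.33 times in A5. All 6 EV and OE libraries lay above all 9 Scr, KD4 and KD6 libraries in the same 4 regions, against 0.649% of all regions. In the KD table this held for B5 and B6, 2 of 6 regions, against 0.83%. The EV and Scr lines differ in vector and, if each was selected like the lines it controls for, in drug. These cannot be told apart here, and the labels do not say whether the sets were prepared together.

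The neighbourhood did not share the change in OE. Within 100000 bp on either side of the window, 0 of 18 OE-table regions were called for OE vs EV. Over all tested regions 0.0106% were called, all of them at the locus, so this count does not set the neighbourhood apart. Log2 fold changes of the flanking regions ran from -0.40 to 0.36, and each of A1 to A4 lay above that range. Of the KD-table regions there, 0 of 23 flanking regions were called for knockdown vs Scr, against 0.271% of all regions. Their log2 fold changes ran from -0.37 to 0.33.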

How the data were processed

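The 15 libraries of 6DT1 monolayer cells, deposited as ATAC-seq, were grouped by their labels. Per the methods, the authors used Partek Flow to align reads (Bowtie2, mm39) and call peaks (MACS). The processing notes of the submitters instead list STAR 2.7.8a, and the labels' protocol describes RNA extraction, so it is uncertain which assay gave the counts. The sources used here do not say how peaks were merged or reads assigned. As deposited, the values are expected counts without normalization, of which 95.1% (KD table) and 95% (OE table) are whole. A further 15 columns of each table, which fit no sample, stayed unused.

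Expected counts were rounded to whole numbers, although the planned design assumed whole counts, and tested over each whole table with edgeR 4.0.16 in R 4.3.3 (quasi-likelihood test, TMM, filterByExpr, Benjamini-Hochberg FDR of 0.05). CPM used TMM over all 15 libraries of a table. OE and EV were fitted alone, and Scr, KD4 and KD6 were fitted as 3 groups. Exact permutation tests used scipy 1.17.1. The edgeR procedure was tested on simulated data. No annotation of mm39 was used. Exons were placed by spacing, which replaced the mm39 exon positions that the planned share of exon counts needed, and planned summaries of other BAF subunit genes and of cell type marker genes could not be made. The OE vs EV fold of regions in both tables comes from separate fits. Smallest variance between replicates was 3.53 times the sampling noise, so no library appears to be present a second time. Alternatives were other scalings, DESeq2 1.42.0, other filters, a replicate block and each library left out in turn. The coding to 3′ UTR ratio and the subtraction of nested regions were added after seeing the data. All regions of the window are named. The members and lists were chosen with earlier results of these data known.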

Additional observations from a re-analysis of the deposited data

Results flagged for a closer look

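Region A3, on exons 7 to 9 of *Smarcd1*, stands out because the overexpression and knockdown effects differ there by a direct test. The difference of log2 fold changes, OE vs EV minus knockdown vs Scr, was 1.80 (95% interval 1.33 to 2.27, FDR = 0.000851 from edgeR). All 3 OE libraries lay above all EV libraries, as in 7.17% of all OE-table regions. KD4 libraries lay below all Scr libraries, as in 8.16%, and KD6 libraries overlapped Scr. In its own fit the knockdown effect was not called (log2 fold change -0.33, FDR = 0.572 from edgeR). The OE vs EV log2 fold change in the fit of 5 groups was 1.47.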

How the results depend on the processing

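In the OE table, 3 or 4 locus regions were called for OE vs EV in all settings other than leaving out a library, and 1 to 4 without 1 library. The replicate block gave 3, as did RLE and 1 fit of 5 groups, with A4 lost in each (FDR = 0.0765, 0.0593 and 0.616 from edgeR). Whether replicate numbers pair the samples is uncertain. In the OE table, same-numbered EV and OE deviations correlated at -0.057, 0.36 and 0.324 for replicates 1, 2 and 3. Correlations between different numbers ran from -0.4 to 0.127. Beyond A4, the block changed no call but that of A1 below. The direct comparison of effects called 2 regions, A1 and A3, in place of 1 with no TMM, upper quartile scaling, DESeq2, a minimum of 50 counts in 3 libraries, the replicate block and an FDR of 0.1, and 1 to 2 without 1 library. It gave 2 without KD4 replicate 1 or KD6 replicate 3. With no TMM or upper quartile scaling the median over all regions in that comparison was 0.13 or 0.14, and not 0.01. The cause was not tested. Leaving out 1 library gave 0 to 0 calls for knockdown vs Scr, KD6 vs KD4 and, in the KD table, OE vs EV. The difference in exon share was 8.24 to 9.40 percentage points for OE and 0.134 to 4.71 for knockdown. The ratio to the first exon reversed both, to -10.1 for OE and -0.46 for knockdown. A4 counts outside B5, a level and not a share, differed by -0.159 CPM for knockdown vs Scr. Signs of log2 fold changes that were not called turned without 1 library in A5 (-0.241 to 0.0895), B2 (-0.53 to 0.13), B3 (-0.564 to 0.0577), B4 (-0.10 to 0.13) and B6 (-0.0851 to 0.222) for OE vs EV, in A4 (-0.222 to 0.0935), B4 (-0.151 to 0.0813) and B5 (-0.24 to 0.14) for knockdown vs Scr, and in A1 (-0.11 to 0.19) and B1 (-0.26 to 0.26) for KD6 vs KD4.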

Other observations

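Some expected counts at the locus were not whole, and some neighbouring regions had counts that summed to a whole number. A1, in exon 1, and A2, in exon 2, both had counts that were not whole in 10 of the 15 libraries, and in 9 of these the pair summed to a whole number within 0.002. EV replicate 1 had 17.6 and 131 counts, which sum to 149, and OE replicate 2 had 115 and 336, which sum to 451. The exception was OE replicate 1, with a sum of 359.2. A3 and A4 lie 4206 bp apart on the chromosome and 289 bp apart in the spliced transcript. Both were not whole in 2 libraries only, OE replicates 2 and 3, where they summed to 1338 and to 960. A2 and A3 were both not whole in the same 2 libraries, and neither sum was whole (1272.7 and 904.8). No library had such a pair of A4 and A5, which are 932 bp apart. Over the whole OE table, 209 to 265 pairs of neighbouring regions per library had 2 counts that were not whole, and 57.7% to 83.3% of these pairs summed to a whole number, 63 to 94 of them over 1 kb apart. The sources used here do not say what makes a count fractional.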
